A study of Mus musculus with 1920 samples.

Results

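The cells described here were intestinal stem cells (ISCs) with high levels of mitotic transcripts, 529 of the 1588 cells that passed the stem cell criteria among 1920 sorted cells. The 1588 cells, called the base set, had reads of at least 1000 genes, at least 50 CPM of Lgr5 (CPM, read counts scaled to the same total in every cell) and at least 1000 CPM of Olfm4, both markers of ISCs at the crypt base. For each cell, M was the mean log2(CPM+1) of 10 genes of G2 and mitosis (Mki67, Top2a, Ccnb1, Ccnb2, Cdk1, Birc5, Aurkb, Cdc20, Ube2c and Tpx2), and the members were the 1 in 3 base set cells of highest M, ranked over all mice together. The other 1059 base set cells are called the rest.

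Full-length single-cell RNA sequencing had been run on Lgr5 high-ISCs from small intestinal crypts of 3 young and 4 aged mice (called old in the labels), sorted by their GFP signal into plates of 384 wells. All 7 mice carried the same knock-in allele, B6.129P2-Lgr5tm1(cre/ERT2)Cle/J, which places a GFP reporter and an inducible Cre at the Lgr5 gene, so that only cells that express this allele could enter the gate. No treatment was given in the labels, and no source used here gave the ages of these mice. The mouse was the replicate, and cells of 1 mouse share that mouse. Members held a median of 243100 to 348923 reads per mouse in the aged mice and 193959 to 364118 in the young mice, over 44 to 130 members per mouse. Every cell had its own well and name, no doublet caller was run, and 2 nearby cells in 1 well were not searched for.

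Epithelial turnover in the small intestine rests on the ISCs, which keep dividing next to Paneth cells at the bottom of the crypt. A dividing cell copies its DNA in S phase, passes through G2 and then separates its chromosomes in mitosis. Entry into mitosis is driven by cyclin B bound to Cdk1, and exit by the anaphase-promoting complex (APC/C), which with Cdc20 marks cyclin B for destruction. The transcripts of these genes build up from late S phase to mitosis, so that a high level marks a cell that is preparing to divide or is dividing.

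Promoter sequences of the genes that chose the cells are shown first, because many genes of this phase share short motifs close to their starts. The cell cycle genes homology region TTTGAA and the CCAAT box, which the factor NF-Y binds, were searched on both strands in 300 bases per gene, from 250 bases before the annotated start to 50 after it (RefSeq, GRCm38.p6). In the sequences below, 250 bases that end at the base before the start, 5′ to 3′ along the gene, capitals mark TTTGAA or CCAAT on either strand (TTCAAA or ATTGG when on the other strand); in Ube2c, 1 pair of opposite CCAAT boxes overlaps.
Cdk1, the kinase that drives entry into mitosis, minus strand, chr10:69352913-69353162: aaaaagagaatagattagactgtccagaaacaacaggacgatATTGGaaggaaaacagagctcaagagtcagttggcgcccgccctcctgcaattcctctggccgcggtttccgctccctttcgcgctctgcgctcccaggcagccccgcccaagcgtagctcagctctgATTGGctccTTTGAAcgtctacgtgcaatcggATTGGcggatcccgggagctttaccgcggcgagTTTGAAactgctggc
Ccnb2, a cyclin B, minus strand, chr9:70421555-70421804: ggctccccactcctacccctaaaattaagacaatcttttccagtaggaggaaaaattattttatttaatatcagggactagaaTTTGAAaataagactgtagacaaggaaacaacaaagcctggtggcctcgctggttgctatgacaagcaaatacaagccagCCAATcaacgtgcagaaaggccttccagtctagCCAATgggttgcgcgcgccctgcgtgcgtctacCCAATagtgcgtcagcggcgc
Cdc20, the APC/C activator, minus strand, chr4:118437344-118437593: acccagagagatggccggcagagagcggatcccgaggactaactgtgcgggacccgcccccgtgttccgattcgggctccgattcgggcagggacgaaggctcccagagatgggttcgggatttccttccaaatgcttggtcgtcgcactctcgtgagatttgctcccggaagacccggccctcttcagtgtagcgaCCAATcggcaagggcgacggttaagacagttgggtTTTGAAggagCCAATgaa
Ube2c, the APC/C ubiquitin-conjugating enzyme, plus strand, chr2:164769679-164769928: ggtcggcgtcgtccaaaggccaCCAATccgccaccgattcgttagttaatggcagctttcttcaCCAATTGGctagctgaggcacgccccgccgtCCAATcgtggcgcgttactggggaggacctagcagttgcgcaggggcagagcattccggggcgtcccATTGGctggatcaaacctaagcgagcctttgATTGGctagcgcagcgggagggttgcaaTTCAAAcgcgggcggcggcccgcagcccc
Ccnb1, a cyclin B whose promoter held no TTTGAA, minus strand, chr13:100786487-100786736: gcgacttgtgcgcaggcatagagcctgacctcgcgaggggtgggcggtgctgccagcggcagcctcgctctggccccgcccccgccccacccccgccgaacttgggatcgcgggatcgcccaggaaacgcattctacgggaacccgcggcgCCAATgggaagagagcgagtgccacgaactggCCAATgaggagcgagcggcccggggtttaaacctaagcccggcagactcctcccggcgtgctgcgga

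Of the 10 mitotic genes, 8 were found in the promoter table (Aurkb and Tpx2 were not), and 6 of these 8 held TTTGAA while 7 held CCAAT. The first base of the TTTGAA nearest to the start lay at -15 in Cdk1, at -18 in Cdc20 and at -98 in Mki67. On the other strand it lay at -23 in Top2a and at -29 in Ube2c. In Ccnb2 it lay at 5, after the start and so outside the bases printed above. Ccnb1 held the related TTTAAA at -42 and no TTTGAA. Birc5, an inhibitor of apoptosis that also serves in the chromosomal passenger complex, held neither TTTGAA nor CCAAT but held TTTAAA at -220, so that 2 of the 8 held TTTAAA (25.0%), beside 13.2% of all promoters. Among 92 further genes of G2 and mitosis, 74 were in the table, of which 45 (60.8%) held TTTGAA, 50 (67.6%) held CCAAT and 35 (47.3%) held both. Over all 32851 promoters of this length the shares were 17.9%, 37.4% and 6.95%. The replication genes of S phase held CCAAT as often as the G2 and mitosis genes (67.6% of 34) but TTTGAA in only 4 of 34 (11.8%), and none of 14 ISC markers held TTTGAA. A motif match is a description of the letters and no sign of binding.

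The distribution of M had a low peak and a high peak with few cells between them. 649 base set cells had M below 2 and 315 had M of 8 or more, up to 9.58, while 139 lay between 3 and 5. The lowest point between the peaks, the valley, was at 3.75, and 712 cells lay above it, so that the rule left 183 cells of intermediate M outside. The lowest members had M of 6.37 and 6.37, and the highest cells left out had 6.33 and 6.32. Within 0.5 of the limit stood 54 members and 48 other cells. M is thus a range and the members are not a separate cluster at its lower end.

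**Figure D1:**
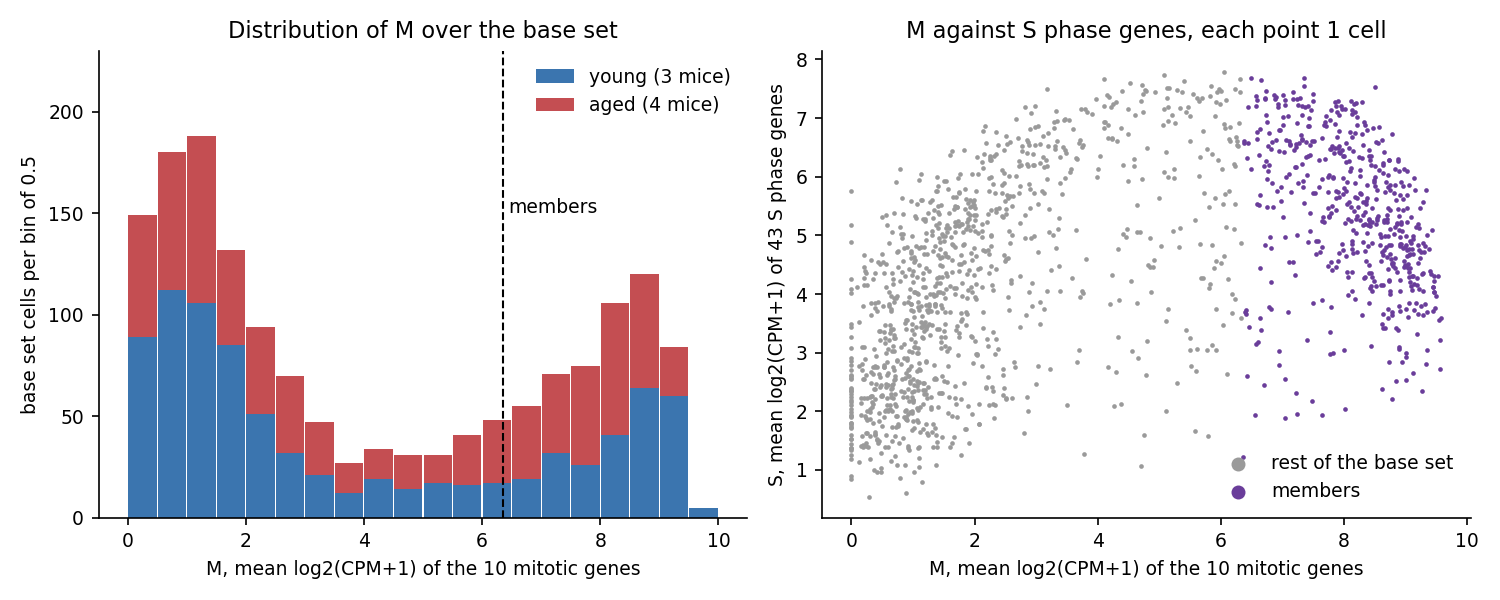
Left, number of base set cells per bin of 0.5 in M (mean log2(CPM+1) of the 10 mitotic genes), stacked by age group, with the lower limit of the members as a dashed line. Right, M against S (mean log2(CPM+1) of 43 S phase genes) for each of the 1588 cells, members in purple. Cells of intermediate M mostly have high S, and among members S is lower where M is near 9 than where it is near 7.

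All 529 members had reads of Mki67, a protein coating mitotic chromosomes, and of Top2a, the topoisomerase that untangles sister DNA. Reads of the other 8 genes were found in 97.0% to 99.8% of members, against 20.2% to 45.7% of the rest. All 10 genes were present together in 491 members (92.8%), and no member had fewer than 8. In the rest, 39 cells (3.68%) had all 10 and 532 (50.2%) had 3 or fewer. These genes chose the cells, so their levels are a description.

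The 10 genes differed widely in abundance (mean CPM over the member cells of a mouse, which is not corrected for gene length). Mki67 ranged from 1924 to 3760 CPM over the 7 mice in members and from 108 to 355 CPM in the rest. Top2a ranged from 1211 to 2031 CPM against 79.8 to 208 CPM. Cyclin B1 (Ccnb1) showed the widest separation of these, 189 to 298 CPM against 3.15 to 8.76 CPM. Ube2c lay at 296 to 506 CPM in members and 7.75 to 26.0 CPM in the rest. Cdk1, at 206 to 296 CPM against 11.2 to 40.1 CPM, was among the less sharply separated, and for none of the 10 genes did the ranges over mice overlap.

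**Figure D2:**
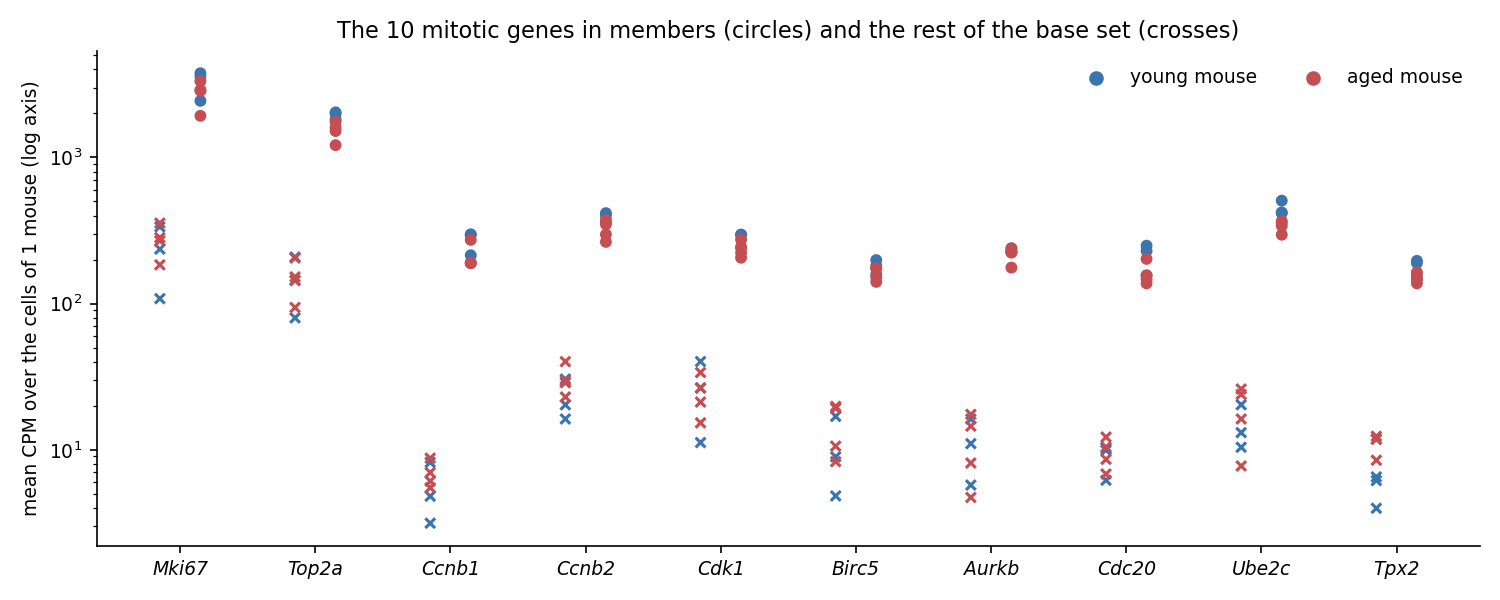
Mean CPM (log axis) of the 10 genes used to choose the cells, each point 1 mouse, circles for members and crosses for the rest of the base set, blue for 3 young and red for 4 aged mice. Circles and crosses do not overlap for any gene, as the choice of the cells fixes.

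Within the members the 10 genes did not rise and fall as 1 block. Pearson correlations across the 529 members, after centring each gene within each mouse, were highest for Top2a with Aurkb (0.634), Mki67 with Top2a (0.628) and Ccnb1 with Ccnb2 (0.611), and Ccnb2 with Cdc20 reached 0.599. The lowest was 0.0611, for Ccnb2 with Aurkb, the kinase of the chromosomal passenger complex. Mki67, Top2a and Aurkb thus went together, as did the cyclins B with Cdc20 and Ube2c (0.588 for Ccnb1 with Ube2c). These are descriptions over cells that share library depth and mouse.

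Outside the 10 genes, nearly all transcripts of the mitotic machinery were higher in the members. Of 19786 genes with enough reads, 312 (1.58%) were at least 2-fold higher in members in all 7 mice and 31 (0.157%) at least 2-fold lower, whereas 78 of the 92 other G2 and mitosis genes were at least 2-fold higher and 89 were higher in every mouse. The median of these 92 was 3.21 on the log2 scale, against -0.07 for all genes. Without the cells in which markers of another cell type led, the count of 2-fold rises was 301. The comparison is a description with no test, since the cells were chosen by genes that move with these.

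By role, all 11 mitotic kinases passed 2-fold in every mouse. Plk1, which triggers mitotic entry and centrosome maturation, stood at 222 CPM in members and 9.62 CPM in the rest (summed reads per mouse, mean of 7 mice), a median log2 fold change of 4.79. Pbk and Bub1b, a kinase-like protein of the spindle checkpoint, had log2 fold changes of 3.05 and 3.30. Of 11 cyclins and Cdk regulators 8 passed 2-fold. Ccna2, the cyclin of S and G2, stood at 363 CPM against 34.2 CPM, and the phosphatase Cdc25c, which activates Cdk1, had the highest log2 fold change of the list, 5.07. Wee1, the kinase that holds Cdk1 inactive, was the lowest at 0.64 and was higher in 6 of 7 mice.

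All 20 kinesins and spindle genes and all 8 cytokinesis genes passed 2-fold. Tubb4b, a beta-tubulin, reached 775 CPM against 120 CPM, and Kif11, the motor that pushes spindle poles apart, 407 CPM against 23.2 CPM. Hmmr and Nusap1, both spindle proteins, had log2 fold changes of 5.05 and 5.06. Prc1, which bundles microtubules of the central spindle, stood at 347 CPM against 23.4 CPM. Of 17 centromere and kinetochore genes 16 passed, led in level by Cenpf (418 CPM against 25.0 CPM), and the exception was Zwint at 0.33.

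The spindle checkpoint and APC/C list was the least uniform, with 6 of 11 genes past 2-fold. Its abundant core subunits lay near their level in the rest, with Anapc5 at 354 CPM against 265 CPM and Cdc16 at a log2 fold change of 0.08. Bub3, a checkpoint protein, rose to 224 CPM from 63.8 CPM, a log2 fold change of 1.75. Of 14 condensin and chromatin genes all were higher in every mouse and 9 passed 2-fold, with Smc4, a condensin subunit, at 514 CPM against 100.0 CPM. The plot of lists shows these differences side by side.

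**Figure D3:**
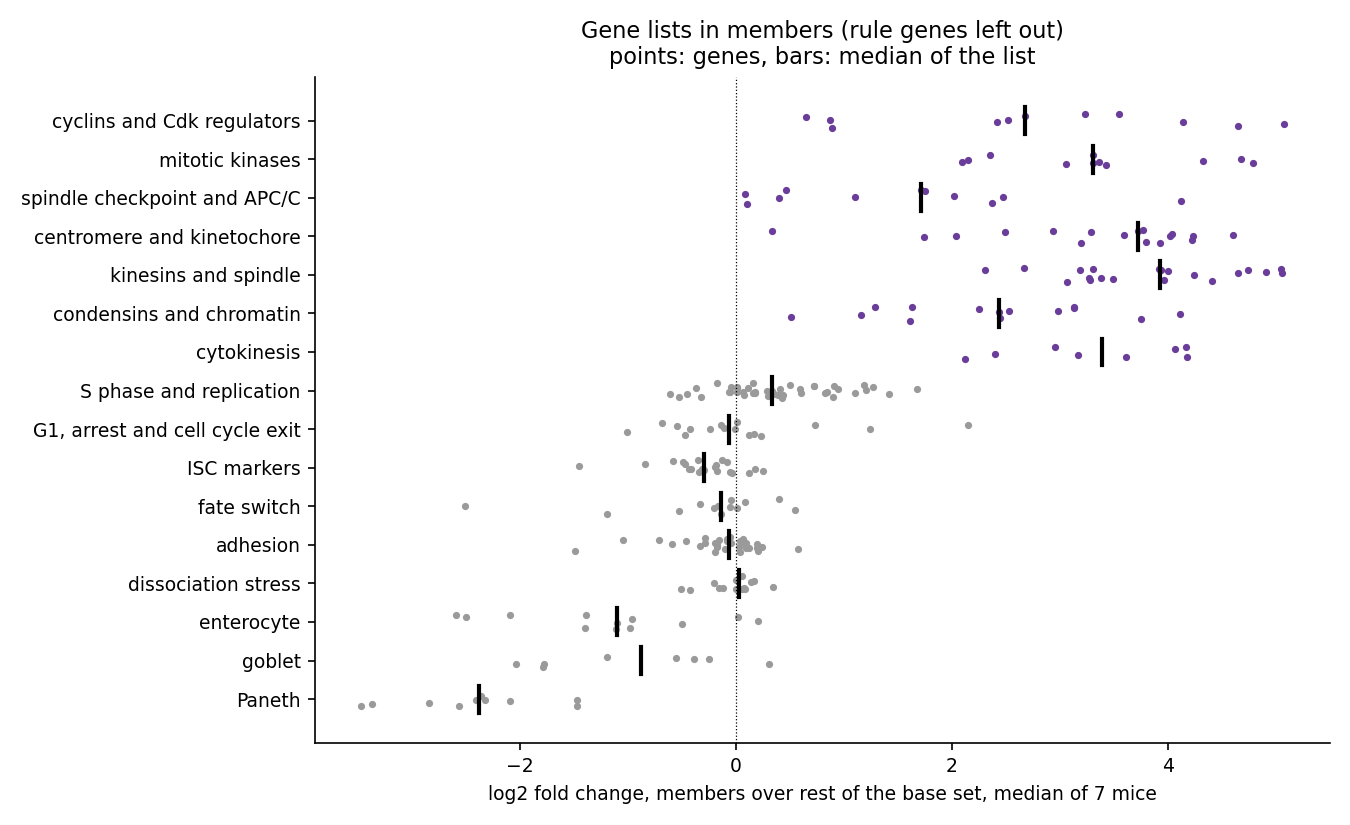
Log2 fold change of each gene, members over the rest of the base set, as the median of 7 mice (horizontal axis), by gene list, with black bars for list medians; the 10 genes that chose the cells are left out. G2 and mitosis lists have medians of 1.71 to 3.93, S phase 0.33, ISC markers -0.30 and Paneth markers -2.38.

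Genes outside all cell cycle lists with the largest rises were led by Pif1, a DNA helicase, at 24.5 CPM in members and 0.321 CPM in the rest, a median log2 fold change of 7.16. Pimreg (5.55), Prr11 (5.19) and Troap (4.84), a protein of the spindle, came next. Hist1h2ab, a replication-dependent H2A histone gene, stood at 146 CPM against 7.93 CPM and Hist1h2ak at 29.2 CPM against 2.45 CPM. Gm44484, an annotated microRNA locus, had a rise of 4.74 close to the 4.72 of Hist1h2ab, and it lies inside Hist1h2ab on the opposite strand (chr13:23751378-23751515 within chr13:23751126-23751598, GRCm38), so that their reads cannot be told apart where counting did not use the strand. Cdkn3, Sapcd2, Iqgap3, Ankle1 and Kif14, a kinesin of cytokinesis, had rises of 4.18 to 4.59.

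Members carried somewhat less of the ISC markers. Of 21 markers 9 were lower in all 7 mice and none higher in all 7, where 7.69% and 8.18% of all genes were, and the list median was -0.30. Lgr5 itself stood at 322 CPM against 435 CPM and was lower in members of every mouse (log2 fold changes of -0.65 to -0.26). Its levels in members, in CPM of summed reads, were 336, 348 and 383 in the young mice and 320, 303, 217 and 350 in the aged mice, so the age groups overlapped on this scale. As mean CPM over cells its levels in members were 391, 359 and 377 in the young mice and 333, 284, 256 and 323 in the aged mice. On that scale the age groups did not overlap. Olfm4, at 14864 CPM against 17195 CPM of summed reads, was lower in members of each mouse as well. Slc12a2, an ion transporter of crypt cells, was lower by 0.58 on the log2 scale, whereas Smoc2 stood at 1008 CPM against 1046 CPM. Ascl2, the transcription factor of ISC identity, was higher in members of 6 of 7 mice (median log2 fold change 0.25). ISC markers led over the markers of 7 other cell types in 490 members (92.6%) and in 930 cells of the rest (87.8%). Lgr5 and Olfm4 are on that list and also chose the base set, so this count is a description and no check of the label.

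The largest falls were in Paneth cell products. Lyz1, lysozyme, stood at 768 CPM in members and 5771 CPM in the rest, and Defa24, an antimicrobial alpha-defensin, at 2333 CPM against 14080 CPM. Of the 10 Paneth markers 8 were lower in all 7 mice and 4 at least 2-fold lower. Alpha-defensin genes are near-identical copies, so the single values of Defa21 (-4.18), Defa34, Defa26, AY761184, Defa3, Defa24 and Defa17 (-2.33) are uncertain, since reads can be split among them. The summed Paneth markers ranged from 1137 to 7929 CPM over mice in members and from 7184 to 44538 CPM in the rest, and no marker of the list was at 0. Cells in which Paneth markers led made up 10 of the members (1.89%) and 71 of the rest (6.70%). Among cells led by ISC markers the falls were smaller, -0.39 for Lyz1, -0.28 for Defa24, 0.0049 for AY761184 and -1.17 for Ang4, a ribonuclease of Paneth granules. Nupr1, a stress-induced regulator, kept a fall of -2.35 in those cells and Nrep of -1.22.

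Transcripts of S phase were not lost from the members. Of 43 replication genes 14 were higher in every mouse and 1 passed 2-fold, and the median was 0.33. Rrm2, the regulated subunit of ribonucleotide reductase, was that gene, with a log2 fold change of 1.68, and Rrm1 stood at 316 CPM against 133 CPM. The helicase genes Mcm2 and Mcm6, loaded before S phase begins, had log2 fold changes of -0.61 and -0.37. Ung, the uracil-DNA glycosylase, which was chosen after its values were seen, stood at 14.5 CPM in members and 57.9 CPM in the rest, lower in all 7 mice. Among 16 genes of G1 and cell cycle exit the median was -0.06, with Ccnd1, the G1 cyclin, lower in every mouse (-0.68) and Cdkn2c, an inhibitor of Cdk4 and Cdk6, higher in every mouse (2.14).

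The label of G2 and mitosis therefore covered cells with higher and with lower levels of replication transcripts. When the base set was ranked by S, the mean log2(CPM+1) of the 43 S phase genes, the 529 cells of highest S included 256 of the members (48.4%) and 25.8% of the rest. Among the 183 cells between the valley and the members 60.1% were of this kind, and over all base set cells M and S had a Pearson r of 0.484. The 256 members of high S had a median M of 7.86, with Mcm6 at 295 CPM, Pcna, the sliding clamp of replication, at 269 CPM and Ccnb1 at 120 CPM (means over mice of mean CPM per cell). The other 273 members had a median M of 8.69, with Mcm6 at 78.5 CPM, Pcna at 60.2 CPM and Ccnb1 at 341 CPM. Cdc20 stood at 101 CPM in the former and 257 CPM in the latter, and Ccne2, the cyclin of the G1 to S step, at 32.4 and 2.44 CPM. Lgr5 was near 338 CPM in the former and 326 CPM in the latter.

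The members were also described by a ratio that set 10 genes of mitosis (among them Cdc20, Ccnb1, Plk1 and Aurka) against 10 genes of early S and G2 (among them Top2a, Cdk1 and Mki67), as the difference of their mean log2(CPM+1). Across members, centred per mouse, the genes most negatively correlated with the ratio were Tcf19 (-0.63), Atad2 (-0.60), Pclaf (-0.59), Rrm2 (-0.58), Lig1, a DNA ligase (-0.55), and Pcna (-0.54). At the other end were Cdc25c (0.58), Cdc25b (0.57), Cdkn3 (0.57), Cep89 (0.56), Pif1 (0.56) and Cenpf (0.54). Pif1 and Cdkn3, both among the largest rises outside the cell cycle lists, therefore stood at the mitotic end of the members.

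The comparison between ages asks whether ISCs of aged mice held more or fewer dividing cells and whether these cells differed. Members made up 32.1%, 37.1% and 22.1% of the base set in the young mice and 26.3%, 40.5%, 48.2% and 35.8% in the aged mice, so the groups overlapped. The means were 30.5% ± 7.65 (SD, n = 3) and 37.7% ± 9.13 (n = 4), a difference of 7.25 percentage points (exact two-sided permutation p = 0.314, and 0.359 after Benjamini-Hochberg adjustment over 8 such comparisons). With 35 divisions of the mice the smallest possible p is 0.0286. The lowest and the highest share, in young 3 and aged 3, had 95% exact binomial intervals of 17.9% to 26.9% and 39.6% to 56.9%, which cover counting error only. Cell names carry a code shared by 384 cells, which no source used here calls a plate or a lane. In the 3 such code groups that held mice of both ages, the aged mouse differed from the young one by -6.79, 16.0 and -0.488 percentage points, so the direction was not shared among code groups.

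Base set cells made up 91.5% ± 3.65 (SD, n = 3) of the cells with enough genes in young mice and 80.8% ± 6.56 (n = 4) in aged mice (exact permutation p = 0.0857, adjusted p = 0.229). The share of members is thus taken over a base set that held a smaller part of the sort in aged mice. In the rest, markers of another cell type led in 5.45% to 10.5% of cells in young mice, against 4.88% in aged 1 and 23.4% to 27.5% in the other 3 aged mice. In members the same share was 3.85% to 11.1% in young and 6.06% to 9.68% in aged mice. The part of these cells in the shares was not tested.

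Within the members, M was lower in aged mice, given here as a description because M chose the cells. Its median was 8.62, 8.74 and 8.32 in the young mice and 8.27, 8.12, 7.98 and 8.00 in the aged mice, with no overlap. Within the code groups that held both ages the aged medians of 8.27, 7.98 and 8.12 stood beside young medians of 8.83, 8.62 and 8.69. Members with M of at least 8.5 made up 53.3%, 56.9% and 40.3% in the young mice and 31.8%, 30.6%, 31.8% and 24.8% in the aged mice. Members of high S made up 44.8% ± 1.86 (SD, n = 3) in young and 51.3% ± 6.81 (n = 4) in aged mice (exact permutation p = 0.143, adjusted p = 0.286), with aged 1, at 43.2%, inside the young range of 43.1% to 46.8%.

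The ratio of mitosis to early S and G2 genes was -1.72, -1.53 and -1.71 in the young mice and -1.69, -1.95, -1.86 and -1.62 in the aged mice, so the groups overlapped. Its means were -1.65 ± 0.11 (SD, n = 3) and -1.78 ± 0.15 (n = 4). The ratio contains genes of the rule, so its values are a description. The mean pairwise correlation among the members of a mouse, over 2000 variable genes, was 0.0926 ± 0.00856 in young and 0.104 ± 0.00458 in aged mice (exact permutation p = 0.0857, adjusted p = 0.229), and young 3, at 0.101, lay above aged 2, at 0.0985. The difference in the correlation did not pass the threshold.

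Depth did not separate the ages. The median reads per member were 282020 ± 85236 (SD, n = 3) in young and 295732 ± 47694 (n = 4) in aged mice (exact permutation p = 0.8, adjusted p = 0.8). Members had 9742.5 ± 288 detected genes in young and 9965 ± 265 in aged mice (exact permutation p = 0.314, adjusted p = 0.359). The 515 members with at least 100000 reads were also thinned to that number, leaving out 14, a comparison added with the values in view. The median number of detected genes was then 8437.5, 8425.5 and 8347 in the young mice and 8571, 8561.5, 8562 and 8596 in the aged mice. These did not overlap, and the means of 8403 ± 49.2 and 8573 ± 16.2 differed with the smallest p the design allows (exact permutation p = 0.0286), which gives 0.229 after adjustment over the 8 comparisons.

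**Figure D4:**
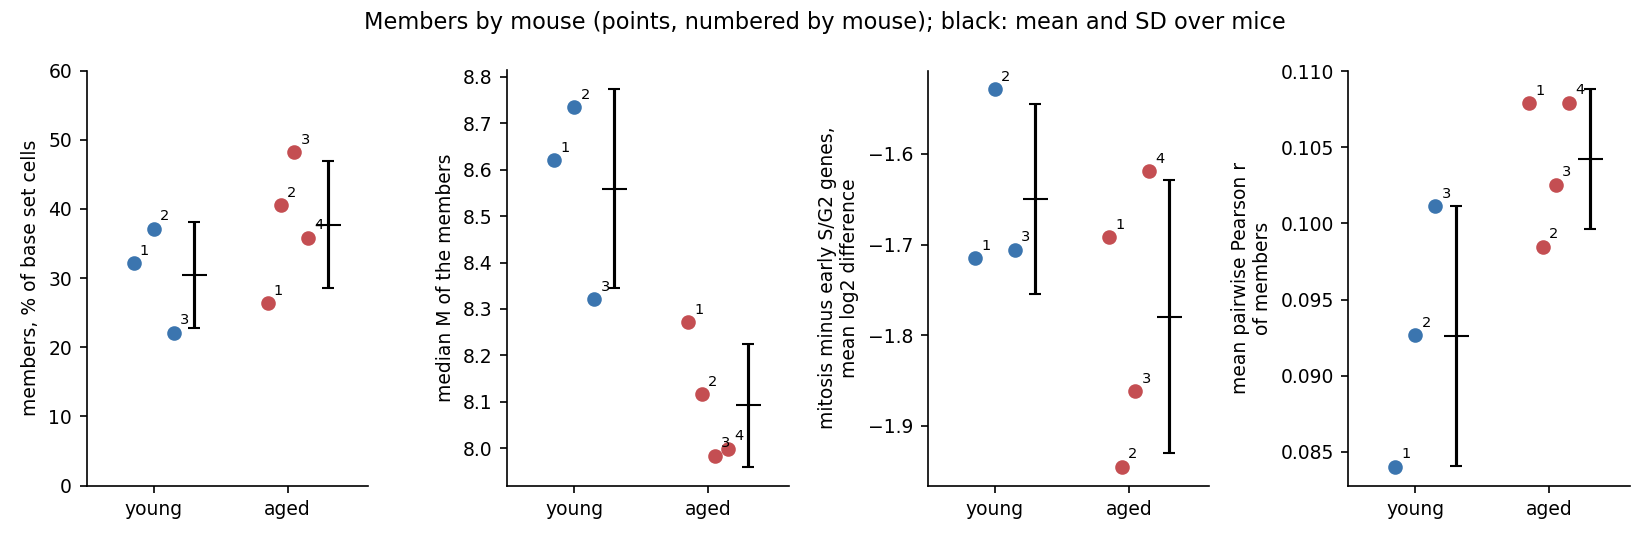
Share of members in the base set (%), median M of members, mean ratio of mitosis to early S and G2 genes in members (log2 difference) and mean pairwise Pearson r among members, each point 1 mouse and black bars the mean and SD over 3 young or 4 aged mice; only the first axis starts at 0. The medians of M do not overlap between ages and the other measures do.

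Gene by gene, the summed reads of the members of each mouse were compared between ages with edgeR's quasi-likelihood test over 17562 genes. Only 3 genes (0.0171%) passed an adjusted p of 0.05, 2 higher and 1 lower in aged mice, where DESeq2 called 90, and 898 (5.11%) had an unadjusted p under 0.05. In 506 genes (2.88%) all aged mice lay above all young mice, and in 480 (2.73%) below. None of the 3 was a gene of the cell cycle.

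Rps4l, annotated as a transcribed processed pseudogene related to a ribosomal protein gene (chr6:148354656-148355598), stood at 25.9, 42.3 and 32.7 CPM in members of the young mice and at 0, 0.648, 0.282 and 0.465 CPM in the aged mice. It was near absent in every aged mouse. The log2 fold change was -6.47 ± 0.53 (SE; edgeR adjusted p = 0.0032), a size that depends on how low counts are offset, and its reads may be shared with similar ribosomal genes. Ddr2, a collagen receptor kinase (chr1:169972307-170110762), stood at 0.798, 0.925 and 0.777 CPM in the young and 16.1, 23.6, 16.2 and 9.61 CPM in the aged mice, a log2 fold change of 4.28 ± 0.39 (SE; edgeR adjusted p = 0.0046). Ly6e, a membrane-anchored protein induced by interferon (chr15:74955051-74959905), stood at 110, 142 and 103 CPM against 330, 590, 613 and 672 CPM, a log2 fold change of 2.22 ± 0.24 (SE; edgeR adjusted p = 0.018). The groups did not overlap for any of the 3.

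The rest of the base set showed the same direction for these genes. Mean CPM in the rest was 27.2 in young and 1.59 in aged mice for Rps4l, 0.720 and 14.4 for Ddr2, and 121 and 422 for Ly6e. None of the 3 passed the test for an age effect that differed between members and the rest (edgeR adjusted p = 0.997, 0.998 and 0.997). The fit with the code group as a block held only the 3 code groups of both ages. It left out young 3 and aged 4, and entered young 2 separately for each of its code groups. In this fit none of the 3 genes passed (edgeR adjusted p = 0.078, 0.078 and 0.38) while the log2 fold changes were -6.81, 4.58 and 1.90. The same mice were not fitted without the block, so its part was not tested. Without young 2, in the fit with no block, no gene passed (edgeR adjusted p = 0.053, 0.079 and 0.11). Ddr2 also missed the threshold without young 1 or young 3 (edgeR adjusted p = 0.058 and 0.078), and Ly6e without young 1, young 3 or aged 3 (0.20, 0.24 and 0.084).

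The genes of next lowest p did not pass the adjustment. Higher in all aged mice were BC064078, a pseudogene (17.1 to 21.6 CPM against 50.2 to 101 CPM, edgeR adjusted p = 0.072), Galnt12, which starts mucin-type glycosylation (39.0 to 59.7 CPM against 111 to 130 CPM, adjusted p = 0.14), and Gas7 (18.8 to 25.3 CPM against 50.2 to 105 CPM, adjusted p = 0.14). Slc40a1, the iron exporter ferroportin, Aldh1a1, a retinaldehyde dehydrogenase, Tst and Fam20a had log2 fold changes of 1.19 to 1.65. Lower in all aged mice were Pik3ap1 (32.7 to 44.5 CPM against 10.2 to 21.3 CPM, adjusted p = 0.34), Pdgfa, a growth factor (80.1 to 123 CPM against 44.3 to 68.3 CPM), and Cpm, a carboxypeptidase (52.6 to 77.6 CPM against 10.6 to 34.0 CPM). Pimreg, which was among the largest rises in members, was chosen here after its values were seen. It stood at 31.6, 39.2 and 32.4 CPM in the young and 24.1, 16.0, 12.5 and 15.7 CPM in the aged mice (log2 fold change -1.01 ± 0.24, SE; edgeR adjusted p = 0.49).

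**Figure D5:**
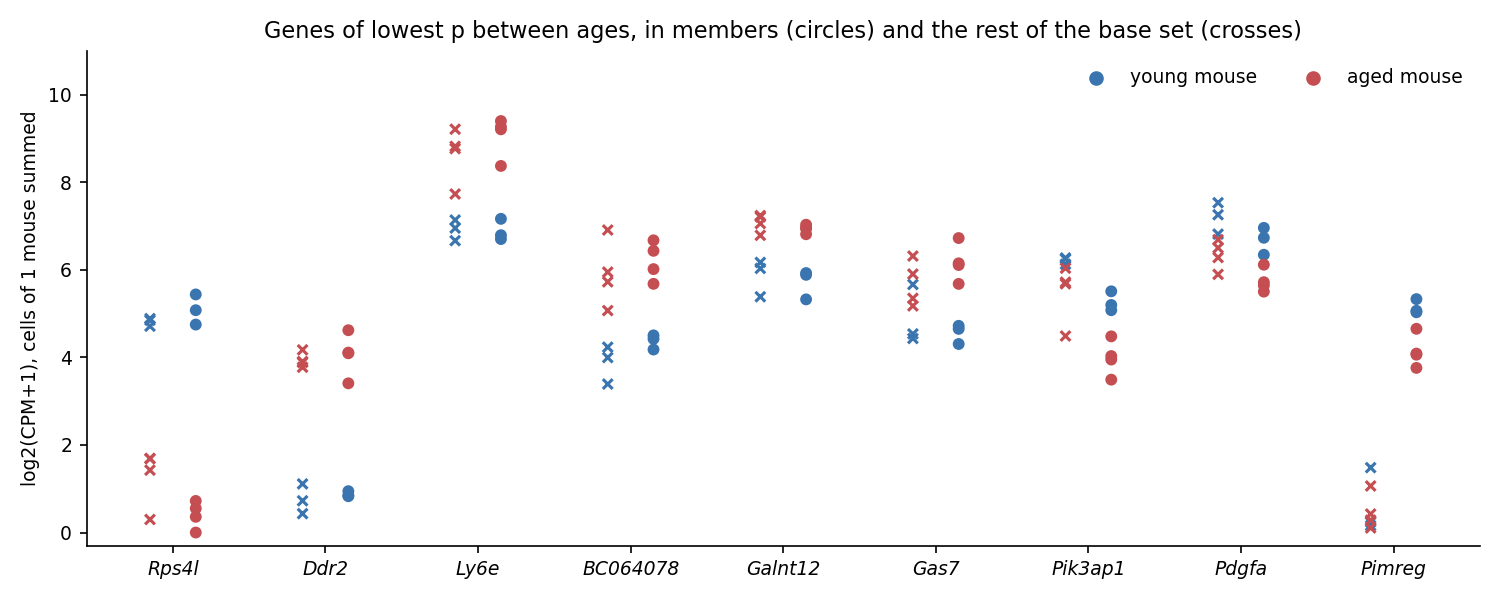
Log2(CPM+1) of the summed cells of 1 mouse for the 3 genes that passed edgeR's test between ages (Rps4l, Ddr2, Ly6e) and 6 that did not pass. Pimreg, 1 of these 6, was chosen after its values were seen. Circles are members and crosses the rest of the base set, blue young and red aged. In members the ages do not overlap for any of the 9 genes, and Rps4l, Ddr2 and Ly6e show the same gap in the rest.

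The lists of the cell cycle leaned in opposite directions with age, with no gene called. List levels per mouse, as mean log2(CPM+1) from summed reads, overlapped between ages except in the mitotic kinases and in the kinesins and spindle genes. The mitotic kinases were at 6.93, 7.05 and 6.94 in the young mice and 6.83, 6.77, 6.88 and 6.87 in the aged mice. The kinesins and spindle genes were at 7.49, 7.59 and 7.48 in the young mice and 7.43, 7.30, 7.38 and 7.31 in the aged mice. These levels were not tested. Of the 10 mitotic genes 9 were lower in aged members (median log2 fold change -0.17), and of the 92 other G2 and mitosis genes 66 were lower (median -0.13), against 8225 of all 17562 genes (46.8%, median 0.02). The mean log2(CPM+1) of the 92 genes, from summed reads, was 7.10, 7.22 and 7.11 in the young mice and 7.11, 7.05, 7.02 and 7.01 in the aged mice. Prc1, at 389 ± 2.97 CPM (SD, n = 3) against 315 ± 12.0 CPM (n = 4), was 1 of 4 genes of the 92 in which all aged mice lay below all young mice, with Cdc25c, Bub1 and Ckap5. Those 4 of 92 stand beside 2.73% of all genes. Prc1 had a log2 fold change of -0.31 ± 0.12 (SE; edgeR adjusted p = 0.93). The 10 mitotic genes chose the cells, so their values between ages are a description. Top2a stood at 1792, 1866 and 1789 CPM in the young and 1528, 1741, 1354 and 1332 CPM in the aged mice, and Ube2c at 399, 490 and 405 CPM against 339, 350, 296 and 361 CPM. Aurkb was the 1 of the 10 that was not lower (log2 fold change 0.04), and its sign turned under 7 alternatives.

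Of the 43 S phase genes 38 were higher in aged members (median 0.14), and in 5, Pcna, Prim1, Tyms, Chaf1b and Rrm1, all aged mice lay above all young mice, beside 2.88% of all genes. The mean log2(CPM+1) of the 43 genes was 6.38, 6.19 and 6.20 in the young mice and 6.32, 6.50, 6.41 and 6.40 in the aged mice, so the groups overlapped. Pcna stood at 136 ± 9.58 CPM (SD, n = 3) in young and 183 ± 26.0 CPM (n = 4) in aged members, a log2 fold change of 0.43 ± 0.15 (SE; edgeR adjusted p = 0.85). Over 24 alternative settings 54 to 78 of the 92 G2 and mitosis genes were lower and 26 to 39 of the 43 S phase genes higher in aged members. M itself was lower in aged members, and its part in both lists was not tested.

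Lists outside the cell cycle also held no called gene. Of 32 adhesion genes (integrins, laminins and junction proteins), a theme the study drew from these same samples and so no independent evidence of direction, 25 were lower in aged members (median log2 fold change -0.15, and 23 to 27 lower over the alternatives). Of the 32, 3 were lower with an unadjusted p under 0.05, beside 377 of all 17562 genes, and 0 were higher at that p. In 3 of the 32 all aged mice lay below all young mice, beside 2.73% of all genes. Lama5, a laminin chain, stood at 14.7 ± 9.17 CPM (SD, n = 3) in young and 6.46 ± 1.01 CPM (n = 4) in aged members. Epcam, the most abundant, had -0.17 ± 0.14 (SE; edgeR adjusted p = 1). The mean log2(CPM+1) of the 21 ISC markers in members, from summed reads, was 7.67, 7.72 and 7.77 in the young mice. In the aged mice it was 7.55, 7.51, 7.58 and 7.65, with no overlap, and this level was not tested. The markers include Lgr5 and Olfm4, which chose the base set. Of the 21 ISC markers 15 were lower and 6 higher in aged members (median -0.07), and 2 had an unadjusted p under 0.05. In those 2, which were named after their values were seen, all aged mice lay below all young mice. Those 2 of 21 stand beside 2.73% of all genes. Tnfrsf19, a Wnt target, stood at 55.4 ± 13.6 CPM in young and 29.8 ± 11.4 CPM in aged members (log2 fold change -0.90 ± 0.30, SE; edgeR adjusted p = 0.78), and Msi1, an RNA-binding protein, at 15.9 ± 1.26 CPM and 9.71 ± 1.73 CPM. Of 12 enterocyte genes 11 were higher in aged members (median 0.99), and their summed level was 841 to 949 CPM in young and 820 to 1824 CPM in aged members. All 8 goblet genes (median -1.72) and 9 of 10 Paneth genes (median -0.81) were lower in aged members. Of the genes tested, 6 of 7 enteroendocrine and 5 of 5 tuft genes were higher. The summed levels of these 4 lists in members overlapped between ages. Of 14 tested genes of dissociation stress 11 were higher (median 0.38).

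Immune, stromal and endothelial markers were at low levels in members. The 7 immune genes summed to 4.97 to 7.42 CPM in young and 10.8 to 12.9 CPM in aged members, as means over cells. On the other scale, CPM of the summed reads of a mouse, Itgae, an integrin of intraepithelial lymphocytes, stood at 3.28, 4.33 and 6.38 CPM in the young and 20.6, 14.3, 8.79 and 10.4 CPM in the aged mice (edgeR adjusted p = 0.54). No member and no cell of the rest was led by immune or by stromal and endothelial markers. The 7 stromal and endothelial genes summed to 0 to 2.50 CPM over the mice, with 1 of them at 0 in all members. The part of these cells in the age comparisons was not tested.

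Whether age acted differently on members than on the rest was tested as an interaction, with the members and the rest of each mouse paired, over 19786 genes. None passed edgeR's adjusted p of 0.05 (0.0%), 816 (4.12%) had an unadjusted p under 0.05, and DESeq2 called 29 genes and limma-voom 1. The lowest p with a lower age effect in members was that of Gip, a hormone of enteroendocrine cells, which stood at 0.177, 156 and 54.9 CPM in young and 0, 0.185, 136 and 0.520 CPM in aged members, and at 0.246, 0.240 and 0.232 CPM against 0, 8.55, 832 and 0.244 CPM in the rest. Single mice held nearly all of its reads, 2 young and 1 aged in members and 1 aged in the rest. Dmbt1, a secreted mucosal defence protein, stood at 293, 271 and 125 CPM in young and 439, 535, 421 and 577 CPM in aged members, and at 115, 99.7 and 68.3 CPM against 361, 370, 302 and 384 CPM in the rest (interaction -0.75 ± 0.16 on the log2 scale, SE; edgeR adjusted p = 0.997). Slc12a8 and Chgb, a granin of enteroendocrine cells, followed.

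Among genes with a higher age effect in members, Arhgap8 stood at 20.4, 20.9 and 19.2 CPM in young and 27.7, 43.6, 51.0 and 25.5 CPM in aged members, and at 27.2, 27.8 and 32.5 CPM against 17.7, 23.1, 31.2 and 24.7 CPM in the rest. Its interaction was 1.11 ± 0.24 on the log2 scale (SE; edgeR adjusted p = 0.997). Pon3, a paraoxonase, stood at 72.6, 58.3 and 74.2 CPM against 93.0, 105, 115 and 108 CPM in members, a gap between ages, and overlapped in the rest. Zfp873 and Cops7b had interactions of 0.85 and 0.95. No difference between members and the rest in the effect of age was therefore detected by edgeR at this number of mice.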

How the data were processed

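The authors deposited raw read counts per Ensembl gene and cell, without molecular identifiers, from single cells lysed in plates and copied with a poly(T) primer. Per the labels, reads were aligned to GRCm38 with HISAT2, and HTSeq is named; no source used here gives versions or the strand setting. Each column was assigned to its mouse through the cell code in the sample title; 1836 of 1920 cells had at least 1000 detected genes. Genes without a symbol took 0.0307% of the counts.

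CPM was computed per cell over all genes. The members, the gene lists and the tests were chosen with earlier results of these data known. Reads of members, and of the rest, were summed per mouse and tested with edgeR 4.0.16 (quasi-likelihood, TMM scaling, filterByExpr, Benjamini-Hochberg adjusted p under 0.05), in R 4.3.3; the interaction had the mouse as a block. DESeq2 1.42.0 and limma 3.58.1 gave alternatives. Scripts were tested on simulated data. Values per mouse were compared by exact two-sided permutation over all divisions of the mice (Python 3.11.15, numpy 2.4.6). The exact binomial intervals came from scipy 1.17.1. Since separate cells of 1 mouse share that mouse, n is mice. A code in the cell names, shared by 384 cells each, was used as a possible batch, and no source used here says what it is. Of 5 codes 3 held both ages, and the fit with the code as a block used only those, without young 3 and aged 4.

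Named genes were the 10 genes of the rule, the 3 most abundant of each list, the 12 largest rises and falls in members (mean CPM of at least 20, same direction in 7 mice), every gene called between ages, the 8 lowest p in each direction (mean CPM of at least 10), and the 4 lowest p in each direction for the interaction. Others were named after their values were seen, such as list genes chosen as examples. Alternatives changed the limit on M, the depth, the scaling, the filter, the weight of cells, the mice and the blocks. Read counts give no depth beyond the totals stated, and intervals cover counting error only.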

Additional observations from a re-analysis of the deposited data

Results flagged for a closer look

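In 46 sets of 4 aged mice, 1 mouse was looked for that stood far from the other 3, and 3 were found; chance gives about 1 in 20 such sets. Members with M of at least 8.5 made up 24.8% in aged 4, below 30.6% to 31.8% in the other aged mice. Slc40a1, the iron exporter, stood at 20.1 CPM in members of aged 4 and at 13.3 to 13.8 CPM in the other 3. Gip, an enteroendocrine hormone, stood at 136 CPM in members of aged 3 and at 0 to 0.520 CPM in the other 3, beside 0.177, 156 and 54.9 CPM in members of the young mice.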

How the results depend on the processing

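With 3 and 4 mice, depth and number set the limits: no comparison of 1 value per mouse can give an exact p under 0.0286. The difference in the share of members kept its sign under all alternatives run (2.75 to 11.0 points), as did the similarity of members and the share of the base set. The ratio difference turned to 0.0361 when the upper 1 in 2 of base set cells by M was taken, and leaving out 1 mouse gave -0.18 to -0.069. The depth difference ranged from -30319 to 54761 reads when 1 mouse was left out, negative without young 1 and without aged 4 (-4018). Genes called between ages numbered 3, against 6 in the upper 1 in 4 by M, 1 in the upper 1 in 2, 6 with cells led by ISC markers, 5 with M from the G2 and mitosis genes outside the rule, 1 above the valley (the last 2 chosen after seeing the data), 90 with DESeq2, 23 without a filter, 11 with cells weighted equally in limma, 0 with the cell-name code as a block and 0 to 8 when 1 mouse was left out (0 without young 2, 1 without young 1 or young 3, 8 without aged 2). The fit with the cell-name code as a block left out young 3 and aged 4. With a replicate block the number of genes called was 0, against 4 in the same 6 mice without the block. Same-numbered mice did not deviate together (r = -0.13, -0.021 and -0.13), no mouse correlated best with its own number, and the labels give no pairing. The replicate block gave differences of 7.88 points in the share, -0.18 in the ratio and 0.0104 in the similarity. The interaction gave 29 genes with DESeq2, 1 with limma-voom, 4 without a filter and 0 to 0 when 1 mouse was left out. Genes 2-fold lower in members in every mouse numbered 31, against 111 in the upper 1 in 4, 17 in the upper 1 in 2, 10 above the valley, 2 by mean log2 over cells, and 51 to 59 when 1 mouse was left out, where fewer mice had to agree. Signs turned for Aurkb between ages (-0.014 thinned, -0.024 without young 1, -0.056 without aged 4 and in mice 1 to 3 without the block, -0.070 with the replicate block, -0.061 with the code block, -0.11 weighted equally), Tpx2 between ages (0.026, upper 1 in 2), Gip in the interaction (1.20 upper 1 in 2, 0.92 above the valley), and, in members against the rest, Defa26 (0.16 and 0.19), Mptx2 (0.22), Defa24 (0.027), Defa3 (0.065) and AY761184 (0.0049, cells led by ISC markers), the others in the upper 1 in 2 or above the valley. The cause of these changes was not tested.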
